A study of Mus musculus with 7 samples.

Results

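Myelinating oligodendrocyte genes were followed as a group of 8: Mbp, Mobp, Mog, Mal, Mag, Cldn11, Cnp and Ugt8a, taken by symbol from the platform's annotation out of 12393 genes that a probe set names alone. Together they are read by 21 of 20380 single-gene probe sets, and the brightest probe set of each gene stands for it below. RNA came from GFP+ DAPI- cells sorted from mouse gliomas and was hybridised to 7 Affymetrix expression arrays. These were 3 arrays of Ptprd-/-p16-/- tumours (null), 2 of Ptprd+/-p16-/- tumours (heterozygous) and 2 of Ptprd+/+p16-/- tumours (wild type). Ptprd encodes a receptor-type protein tyrosine phosphatase, and p16 is a cell cycle inhibitor that all mice lacked, the wild-type group included. The tumours had been started by cerebral injection of RCAS PDGFB GFP on postnatal days 1 to 3. This avian retroviral vector delivers the growth factor gene PDGFB with a fluorescent marker, and it enters only cells with its receptor tv-A, here made under the Nestin promoter of neural progenitors. Tumours were collected when symptoms appeared or at 12 weeks, in mice whose strain background mixed C57/BL6 with FVB/N. The labels call arrays of a genotype biological replicates and do not state how many mice each array holds, so a p-value reflects only how far these arrays spread.

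Myelin is the stack of membrane that oligodendrocytes wrap around axons in the brain. Oligodendrocyte progenitors divide under platelet-derived growth factor, and when they leave the cycle and mature, factors such as Sox10, Olig2 and Myrf switch on genes for the proteins and lipids of that membrane. Gliomas driven by PDGFB keep many traits of the progenitor, and the 8 genes mark how far cells in such a tumour carry the mature programme.

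All values are log2 expression values on the authors' RMA scale, on which a step of 1 is a doubling. The medians of the 7 arrays lay between 6.62 and 6.71. Bright in these glioma cells was the progenitor gene Pdgfra, the receptor for platelet-derived growth factor, which lay between 12.90 and 13.74. Ptprd itself averaged 9.50 ± 0.50 (SD, n = 3) in null, 9.50 ± 0.11 (n = 2) in heterozygous and 10.87 ± 0.02 (n = 2) in wild-type cells. Its 3 probe sets differed by 0.00, 0.29 and 0.08 in null against heterozygous cells, none of them called. All null and heterozygous arrays lay below both wild-type arrays (adjusted p = 0.882 for null and 0.0311 for heterozygous cells, limma), but Ptprd RNA did not separate null from heterozygous arrays. Whether the probe sets lie in the deleted part was not tested, and null below means arrays labelled Ptprd-/-p16-/-. Over all probe sets the heterozygous arrays stood apart: their correlations with arrays of the other genotypes were 0.976 to 0.987, against 0.990 to 0.995 between null and wild-type arrays. Null replicate 1 and heterozygous replicate 1 carried Xist, a transcript of the silenced X (12.73 and 11.16), together with the Y-linked gene Eif2s3y (8.69 and 9.28). The other 5 arrays were high in only 1 kind of sex-linked transcript. Without those 2 arrays, which leaves 1 heterozygous array and 2 residual degrees of freedom, limma called 0 genes in heterozygous against wild-type cells (1802 at an unadjusted p under 0.05) and 0 in null against heterozygous cells (1426). Leaving out wild type replicate 2 alone brought 938 calls in heterozygous against wild-type cells to 33.

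The stretches of promoter shown next belong to members with contrasting behaviour: Mobp, which varied most between arrays of a genotype, Mag, which had the smallest p against wild type, and Cnp, which varied least. Each is the 300 bases from 250 before to 50 after the gene's start in RefSeq, build GRCm38.p6, read 5′ to 3′. Capitals mark the letters of the SOX core motif ACAAAG and of the MYRF motif CTGGCAC on either strand.
Mobp (chr9:120149492-120149791, plus strand): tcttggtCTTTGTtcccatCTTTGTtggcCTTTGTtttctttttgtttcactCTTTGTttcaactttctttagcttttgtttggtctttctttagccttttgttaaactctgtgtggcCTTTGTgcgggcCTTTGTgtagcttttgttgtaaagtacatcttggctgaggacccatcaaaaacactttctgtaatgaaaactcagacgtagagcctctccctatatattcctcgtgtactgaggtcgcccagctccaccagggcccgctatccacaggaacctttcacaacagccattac
Mag (chr7:30914814-30915113, minus strand): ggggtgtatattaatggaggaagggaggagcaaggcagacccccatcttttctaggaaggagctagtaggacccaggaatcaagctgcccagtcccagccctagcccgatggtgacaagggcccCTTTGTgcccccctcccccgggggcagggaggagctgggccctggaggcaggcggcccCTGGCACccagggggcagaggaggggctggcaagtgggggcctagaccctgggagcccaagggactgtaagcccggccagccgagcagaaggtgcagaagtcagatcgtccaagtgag
Cnp (chr11:100574689-100574988, plus strand): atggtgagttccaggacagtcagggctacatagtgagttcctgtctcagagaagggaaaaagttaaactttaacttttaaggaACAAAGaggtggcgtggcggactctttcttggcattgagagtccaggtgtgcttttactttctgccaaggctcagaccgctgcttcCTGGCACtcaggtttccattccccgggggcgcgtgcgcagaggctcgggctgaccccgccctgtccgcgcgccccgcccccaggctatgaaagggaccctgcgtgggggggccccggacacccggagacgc
The Mobp window held 6 copies of ACAAAG, all on the opposite strand, the nearest ending at base -115 relative to the start. It was the only 1 of 32851 promoter windows in the RefSeq table with at least 6 copies. The Mag window held 1 copy of ACAAAG and 1 of CTGGCAC, and so did the Cnp window. The search covered both strands for ACAAAG as well as ACAATG, for CTGGCAC as well as CTGGTAC, and for the E-box CAGCTG, and no matches overlapped in the members' windows. Of 9 windows for 7 members (Mag has 3 starts, and the windows of 2 of them overlap), 4 held ACAAAG, against 18.7% of all windows. For CTGGCAC the count was 3 windows, against 5.01%, and for CTGGTAC it was 1 window, in Mog, against 2.24%. The 2 overlapping Mag windows hold the same ACAAAG site and the same CTGGCAC site, and both windows were counted. By gene, ACAAAG stood in Mag, Mobp and Cnp, and CTGGCAC in Mag and Cnp. No member window held ACAATG (12.6% of all windows) or CAGCTG (16.3%). The windows of Mal, Ugt8a and Cldn11 held none of these motifs. Matches are a description of letters, and they stood both in Mobp, which varied most, and in Cnp, which varied least.

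All 8 members passed the filter on dim genes, on all 7 arrays. None passed an adjusted p of 0.05 in any pair of genotypes (limma, Benjamini-Hochberg over 9243 genes). The count was 0 of 8 in null against wild-type cells, where 0% of all genes were called, 0 of 8 in heterozygous against wild-type cells, where 10.1% were called, and 0 of 8 in null against heterozygous cells, where 8.96% were called. At an unadjusted limma p under 0.05 the counts were 0, 2 and 2 in the same order, Mag and Cldn11 both times, against 5.14%, 29.9% and 28.5% of all genes. An F test for any difference among the genotypes called 0 of 8, against 5.65% of all genes, and 2 of 8 had an unadjusted p under 0.05 (Mag and Cldn11), against 26.5% of all genes. The largest range between arrays of 1 genotype exceeded the range of the genotype means for 4 of the 8 members (Mbp, Mobp, Mog and Mal), against 59.8% of all genes.

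**Figure D1:**
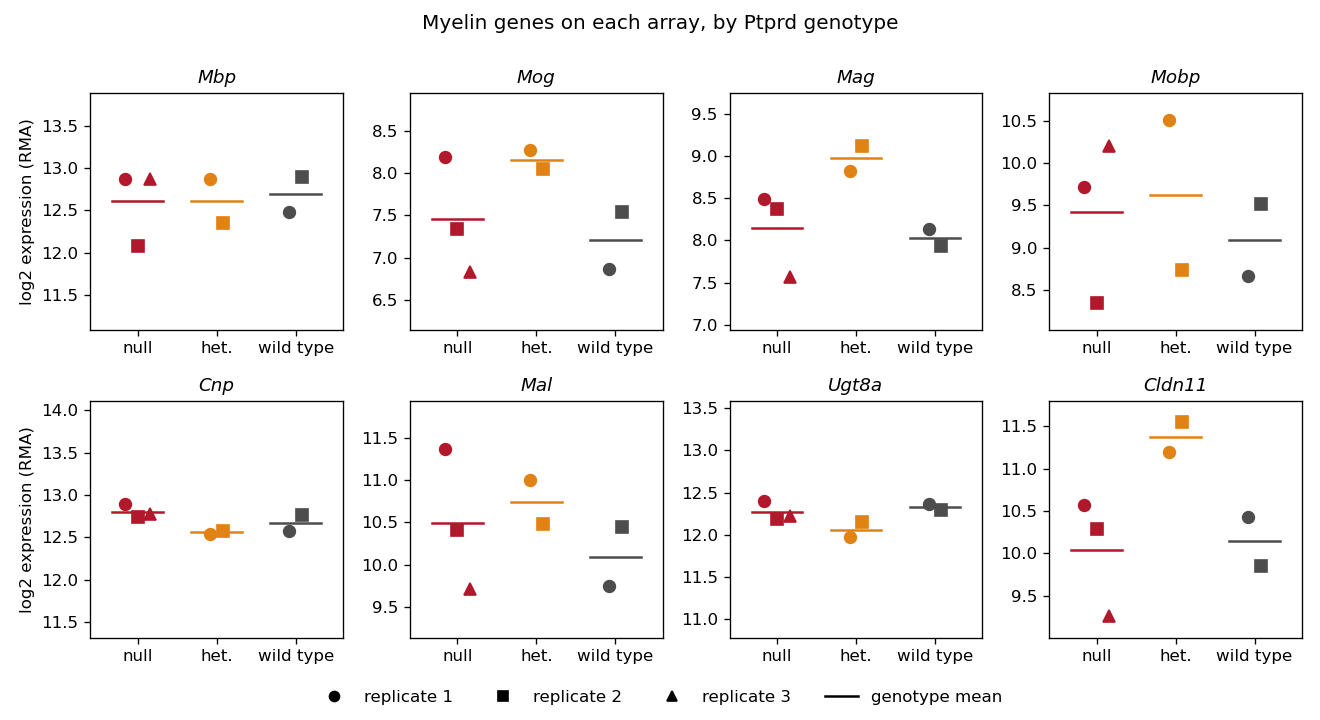
Log2 expression (RMA, vertical axis, each panel spanning the same number of log2 units) of the 8 myelin genes on the 7 arrays, by Ptprd genotype (horizontal axis); symbols mark the replicate and lines the genotype mean. Mobp spans 8.35 to 10.51, whereas Cnp spans 12.54 to 12.89.

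Mbp and Mobp encode small cytoplasmic proteins of compact myelin, and Mbp protein holds the inner faces of the membrane together. Mobp measured 9.71, 8.35 and 10.20 on the null arrays, 10.51 and 8.74 on the heterozygous arrays, and 8.66 and 9.51 on the wild-type arrays. Each genotype held both high and low arrays, and the groups overlapped. Within null cells the highest and lowest array were 3.61-fold apart. Mbp measured 12.88, 12.08 and 12.87 on the null arrays, 12.88 and 12.35 on the heterozygous arrays, and 12.48 and 12.90 on the wild-type arrays. The 3 arrays lowest in Mbp (null replicate 2, heterozygous replicate 2 and wild type replicate 1) were also the 3 lowest in Mobp. Over the 7 arrays, Mbp and Mobp correlated at r = 0.89 (Spearman's rho 0.71), and their deviations from the genotype means correlated at r = 0.96. Such correlations are given here as a description, with no test, since members share arrays and normalization. The pairs described here are the 3 with the highest Pearson r of 28. By Spearman's rho, Mog with Mag (0.79) and Mog with Cldn11, Mag with Mal and Cnp with Ugt8a (0.75 each) stood above Mbp with Mobp. Mobp differed by 0.34 ± 0.67 (log2 difference, SE, 95% interval -1.25 to 1.92) in null against wild-type, by 0.54 ± 0.74 (-1.20 to 2.28) in heterozygous against wild-type and by -0.20 ± 0.67 (-1.79 to 1.38) in null against heterozygous cells. For Mbp the differences were -0.08 ± 0.29 (-0.76 to 0.60), -0.08 ± 0.32 (-0.82 to 0.67) and 0.00 ± 0.29 (-0.68 to 0.68) in that order. Changes of Mobp of 2-fold in either direction therefore remained within the intervals, and the arrays do not show that Mobp is alike in the genotypes.

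Several probe sets read these 2 genes. Of the 8 probe sets of Mbp, the 5 with a mean above 11 varied by 0.815 to 1.10 over the arrays, with null replicate 2 lowest in each. Among the 3 dimmer ones, 2 varied by only 0.19 and 0.25, whereas the other varied by 1.35 and was highest on heterozygous replicate 1 (8.35). The 8 differences in heterozygous against wild-type cells ran from -0.16 to 0.36, with 4 above 0, and 0 of 8 were called. The 3 probe sets of Mobp gave differences of 1 sign within each comparison. The dimmest of them measured 6.99, 6.58 and 6.51 on the null arrays, 7.79 and 7.34 on the heterozygous arrays, and 6.20 and 6.82 on the wild-type arrays, so both heterozygous arrays lay above all others. Its difference of 1.06 in heterozygous against wild-type cells did not pass the threshold in the limma fit of every probe set (adjusted p = 0.0546).

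Mog and Mal encode membrane proteins. Mog is an immunoglobulin-like protein of the outermost myelin layer, and Mal is a proteolipid of lipid-rich membrane domains. Mog measured 8.19, 7.34 and 6.83 on the null arrays, 8.27 and 8.05 on the heterozygous arrays, and 6.87 and 7.54 on the wild-type arrays. Mal measured 11.37, 10.41 and 9.71 on the null arrays, 10.996 and 10.48 on the heterozygous arrays, and 9.75 and 10.44 on the wild-type arrays. Null replicate 1 and both heterozygous arrays were the 3 highest for both genes, and wild type replicate 1 and null replicate 3 were the 2 lowest. Mog and Mal correlated at r = 0.92 (rho 0.96), and at r = 0.99 as deviations from the genotype means. Null replicate 3, the second highest array for Mobp, was thus the lowest for Mog and Mal. On the brightest probe sets the heterozygous and wild-type arrays did not overlap for either gene. The difference was 0.96 ± 0.42 (SE, 95% interval -0.04 to 1.95, adjusted p = 0.182 with limma) for Mog and 0.64 ± 0.51 (-0.56 to 1.83, adjusted p = 0.439) for Mal. For null against wild-type cells the differences were 0.25 ± 0.39 and 0.40 ± 0.46, and for null against heterozygous cells they were -0.71 ± 0.39 and -0.24 ± 0.46. The other probe set of Mal gave differences of the same sign in all 3 comparisons (0.38, 0.59 and -0.21). On that probe set, however, the heterozygous arrays (9.63 and 8.62) and the wild-type arrays (8.08 and 8.98) overlapped.

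Mag and Cldn11 belong to contacts of the myelin membrane. Mag is an adhesion molecule that faces the axon, and Cldn11 forms the tight junction strands between myelin layers. Cldn11 measured 10.56, 10.29 and 9.25 on the null arrays, 11.19 and 11.56 on the heterozygous arrays, and 10.43 and 9.85 on the wild-type arrays. Mag measured 8.50, 8.38 and 7.57 on the null arrays, 8.82 and 9.12 on the heterozygous arrays, and 8.14 and 7.93 on the wild-type arrays. Both heterozygous arrays were above all other arrays for both genes, and null replicate 3 was lowest. Cldn11 was 2.35-fold higher in heterozygous than in wild-type cells (log2 difference 1.23 ± 0.42, SE, 95% interval 0.24 to 2.22, adjusted p = 0.105 with limma), and Mag was 1.91-fold higher (0.94 ± 0.30, 0.23 to 1.64, adjusted p = 0.0911). In null against heterozygous cells the differences were -1.34 ± 0.38 (adjusted p = 0.0719) for Cldn11 and -0.82 ± 0.27 (adjusted p = 0.103) for Mag. Null and wild-type cells differed by -0.11 ± 0.38 for Cldn11 and by 0.11 ± 0.27 for Mag. Mag and Cldn11 correlated at r = 0.98 (rho 0.96). Across the pairs, Mog correlated at r = 0.79 with Mag and 0.74 with Cldn11, and Mal at 0.60 with Mag and 0.52 with Cldn11. Null replicate 3 enters the comparison of heterozygous with wild-type cells only through the shared spread. Without it, Mag (adjusted p = 0.0274 with limma) and Cldn11 (adjusted p = 0.0374) passed the threshold there, at the same differences.

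**Figure D2:**
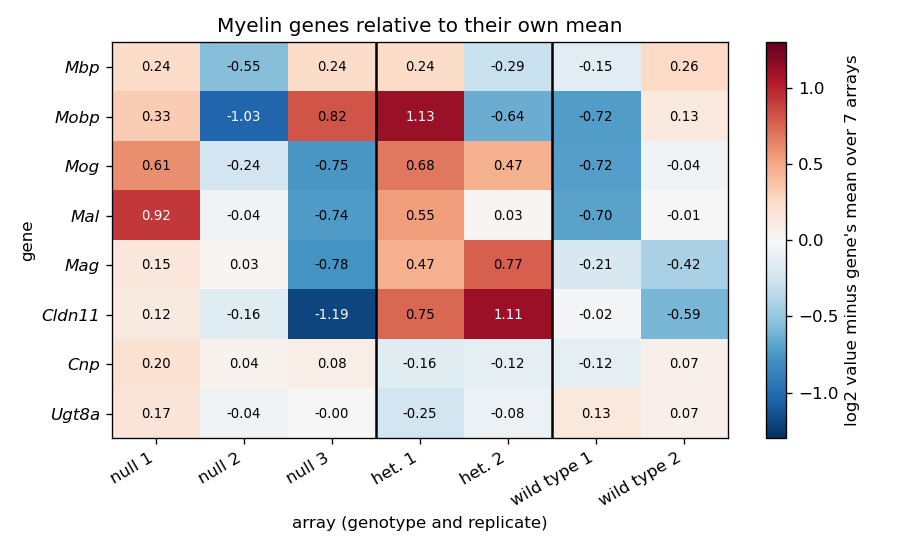
Log2 value of each member minus its mean over the 7 arrays (colour and printed number), with genes down the page and arrays across it; vertical lines part the genotypes. Mbp with Mobp, Mog with Mal, and Mag with Cldn11 are high and low on much the same arrays, and Cnp and Ugt8a stay near 0.

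Cnp and Ugt8a encode enzymes. Cnp is a cyclic nucleotide phosphodiesterase of the cytoplasmic channels of myelin, already made by late progenitors, and Ugt8a adds galactose to ceramide, the step that gives the main glycolipid of myelin. Cnp measured 12.89, 12.74 and 12.78 on the null arrays, 12.54 and 12.58 on the heterozygous arrays, and 12.58 and 12.76 on the wild-type arrays. Ugt8a measured 12.40, 12.19 and 12.22 on the null arrays, 11.98 and 12.15 on the heterozygous arrays, and 12.36 and 12.29 on the wild-type arrays. On the brightest probe set of each gene the heterozygous arrays were the 2 lowest, although wild type replicate 1 was as low for Cnp to 2 decimals. Mag and Cldn11 had been highest on those arrays. On the brightest probe sets, Cnp was at 0.13 ± 0.10 (SE) in null against wild-type, -0.11 ± 0.11 in heterozygous against wild-type and 0.25 ± 0.10 in null against heterozygous cells, and Ugt8a at -0.06 ± 0.11, -0.27 ± 0.12 and 0.21 ± 0.11. The 95% intervals of Cnp against wild type (-0.11 to 0.38 in null, -0.38 to 0.16 in heterozygous cells) reached no further than 0.38 on the log2 scale in either direction. The other 2 probe sets of Cnp were dimmer (means 9.15 and 9.12, against 12.69). They differed from the brightest in sign in heterozygous against wild-type cells, at 0.11 and 0.23, with both heterozygous arrays above both wild-type arrays. In null against wild-type cells 1 of them stood at 0.30 with groups that did not overlap (unadjusted p = 0.0232, adjusted p = 0.812 with limma over probe sets). The other probe set of Ugt8a varied more, between 7.44 on null replicate 2 and 8.41 on wild type replicate 1. Its differences were -0.45 in null and -0.33 in heterozygous against wild-type cells, neither called. In null against heterozygous cells it was at -0.12 with overlapping groups, opposite in sign to the brightest probe set.

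**Figure D3:**
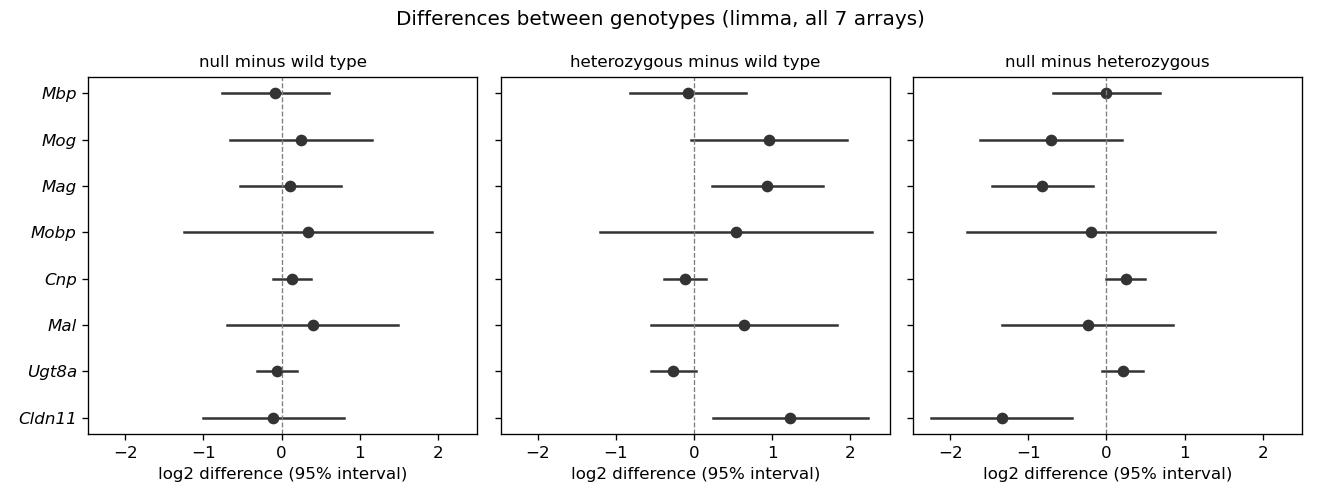
Log2 differences between genotypes (points) with 95% intervals (lines) from limma for the 8 members, in null minus wild type, heterozygous minus wild type and null minus heterozygous cells. Intervals of Mag and Cldn11 lie to the right of 0 in heterozygous minus wild type and to the left of 0 in null minus heterozygous, before adjustment over genes.

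Overlap of the groups was counted over the 8 members on their brightest probe sets. In null against wild-type cells the groups did not overlap for 0 genes, against 21.7% of all genes. In heterozygous against wild-type cells they did not overlap for 6, against 61.3% of all genes: 4 were higher, against 26.2%, and 2 lower, against 35.1%. In null against heterozygous cells they did not overlap for 4, against 43.7% of all genes: 2 were higher, against 25.7%, and 2 lower, against 17.9%. With 8 members, the counts of 6 and 4 are close to these backgrounds. Dimmer probe sets did not all bear these counts out. In heterozygous against wild-type cells those of Mal and Ugt8a overlapped, and those of Cnp were higher rather than lower. The dimmest probe set of Mobp was higher there, and a dimmer one of Mbp lower, without overlap. The median difference of the members was 0.12 in null against wild-type, 0.59 in heterozygous against wild-type and -0.22 in null against heterozygous cells, beside medians of 0.00, -0.04 and 0.04 over all genes. The median of 0.59 was 0.14 without heterozygous replicate 1, 0.20 without wild type replicate 1 and 0.89 without wild type replicate 2. Leaving out heterozygous replicate 1 moved the median of -0.22 to 0.0702, and leaving out heterozygous replicate 2 moved it to -0.59.

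The spread between arrays of the same genotype was large for 6 of the 8 members. The within-genotype SD of a gene pools its deviations from the 3 genotype means. Its median over the 9243 genes tested was 0.15 (log2), and 90% of genes lay below 0.32. Mobp, at 0.97, exceeded 99.7% of genes, Mal (0.66) 98.5%, Mog (0.55) 97.3%, Cldn11 (0.54) 97.3%, Mbp (0.40) 94.2% and Mag (0.38) 93.4%. Cnp (0.09) and Ugt8a (0.10) lay at the 17.6th and 25.6th percentile. The highest array was null replicate 1 or heterozygous replicate 1, those that carried both kinds of sex-linked transcript, for 5 of the 8 members, against 33% of all genes. Of these 5, Mog, Mobp and Mal had a large spread, whereas Cnp and Ugt8a, highest on null replicate 1, had a small one and were lowest on heterozygous replicate 1. The part of those arrays' makeup in the spread was not tested. In bulk RNA, a sample with fewer mature cells and one whose cells hold less myelin RNA cannot be told apart.

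**Figure D4:**
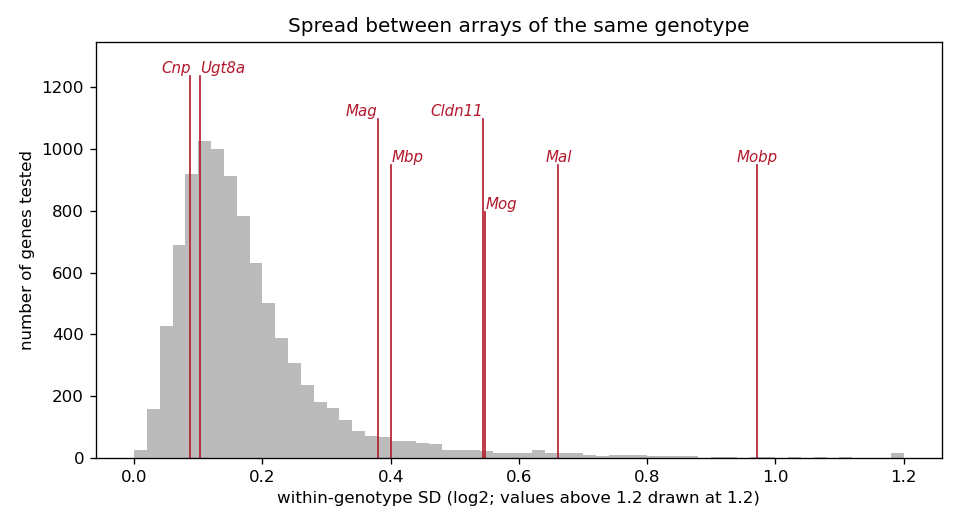
Number of genes (vertical axis, grey bars, 9243 genes tested) by within-genotype SD in log2 units (horizontal axis), with the 8 members as red lines. Mobp lies at 0.97 and Mal at 0.66, whereas Cnp and Ugt8a lie in the bulk of genes.

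A wider list of 38 myelin and mature oligodendrocyte genes, with the members left out, was set beside them. Of 28 that were tested, 0 passed in each of the 3 comparisons with limma, and 0, 3 and 7 had an unadjusted p under 0.05 in null against wild-type, heterozygous against wild-type and null against heterozygous cells. Over all genes 0%, 10.1% and 8.96% were called, and 5.14%, 29.9% and 28.5% had an unadjusted p under 0.05. The medians of the list were 0.11, 0.00 and 0.07. Of these 28 genes, 14 had a within-genotype SD above that of 90% of genes, against 6 of the 8 members. The brightest of the list were Cd9, a tetraspanin, between 12.69 and 13.35, and Plekhb1, between 11.91 and 12.82. Among genes chosen after their values were seen, Aspa, the enzyme that splits N-acetylaspartate in oligodendrocytes, measured 8.83, 7.52 and 6.998 on the null arrays, 7.73 and 7.57 on the heterozygous arrays, and 7.17 and 7.63 on the wild-type arrays. Like Mal, Aspa was highest on null replicate 1 and lowest on null replicate 3. Klk6, a secreted protease of oligodendrocytes, had the widest spread of the list, with 5.39, 7.25 and 4.93 on the null arrays, 8.04 and 10.02 on the heterozygous arrays, and 7.30 and 4.84 on the wild-type arrays. Of 8 tested genes of the premyelinating stage, in which cells have left the cycle but not yet wrapped axons, 0 passed in any comparison (unadjusted counts 1, 2 and 2), and the brightest were the kinase gene Fyn, between 11.35 and 11.66, and Lims2, between 9.38 and 10.38.

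Of 29 listed factors that promote myelin gene transcription, 23 were tested. In null against wild-type cells 0 passed with limma. At an unadjusted p under 0.05 there were 1, 9 and 8 of 23 in null against wild-type, heterozygous against wild-type and null against heterozygous cells, against 5.14%, 29.9% and 28.5% of all genes, and the list medians were -0.10, -0.20 and 0.04. In heterozygous against wild-type cells 0 rose and 2 fell, against 5.95% of all genes called lower: the retinoid receptor gene Rxrg by 0.99 and Olig2, which directs the oligodendrocyte lineage, by 0.67 (adjusted p = 0.00749 and 0.0251 with limma). Rxrg (0.96) and Olig2 (0.57) also rose in null against heterozygous cells, against 5% of all genes called higher. The within-genotype SD of 0 of these 23 genes lay above that of 90% of genes. Sox10, which binds myelin gene promoters, was not called and is named for that role: it measured 11.62, 11.74 and 11.53 on the null arrays, 11.30 and 11.83 on the heterozygous arrays, and 11.72 and 11.91 on the wild-type arrays. Myrf, the factor that starts the myelin programme, was singled out after its values were seen: it measured 8.65, 8.40 and 8.05 on the null arrays, 8.86 and 9.39 on the heterozygous arrays, and 8.65 and 8.29 on the wild-type arrays. As with Mag and Cldn11, both heterozygous arrays were highest and null replicate 3 lowest. Myrf differed by 0.65 ± 0.25 (log2 difference, SE, adjusted p = 0.140 with limma) in heterozygous against wild-type and by -0.76 ± 0.23 (adjusted p = 0.0848) in null against heterozygous cells. Over the 7 arrays its correlation was 0.96 with Cldn11, 0.93 with Mag, 0.64 with Mog and 0.38 with Mal. It was -0.25 with Mobp, -0.31 with Mbp, -0.33 with Ugt8a and -0.59 with Cnp.

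Of 20 listed genes that hold back oligodendrocyte differentiation, 19 were tested, and 0 passed in null against wild-type cells. In heterozygous against wild-type cells 2 rose, against 4.2% of all genes called higher, and 5 fell, against 5.95% called lower. Sox9 rose by 1.34 and Id4, an inhibitor of helix-loop-helix factors, by 1.62, while the Notch ligand gene Jag1 fell by 1.68 and the Notch target Hes5 by 1.05. In null against heterozygous cells 3 rose, among them Jag1 (1.28) and Hes1 (1.17), against 5% of all genes called higher. The 2 that fell there were Id4 (-1.52) and Sox9 (-0.94), against 3.96% of all genes called lower. Of 14 tested genes of oligodendrocyte progenitors, 7 fell and 0 rose in heterozygous against wild-type cells (backgrounds 5.95% and 4.2%), with a list median of -0.66. Rlbp1 fell by 1.76, Pcdh15 by 0.81, Olig2 by 0.67 and Ptprz1, a receptor phosphatase of progenitors, by 0.61. In null against heterozygous cells 5 of the 14 rose and 0 fell (backgrounds 5% and 3.96%), and in null against wild-type cells 0 passed. The progenitor list overlaps the others in genes such as Olig2, Pdgfra and Ptprz1.

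Of 19 tested enzymes of myelin lipids, 0 passed in null against wild-type and in heterozygous against wild-type cells. At an unadjusted limma p under 0.05 there were 1, 6 and 7 of 19 in the 3 comparisons, against 5.14%, 29.9% and 28.5% of all genes. In null against heterozygous cells 2 of 19 rose, against 5% of all genes called higher: Degs1, a ceramide desaturase, by 0.49 and Arsa, the lysosomal enzyme that degrades sulfatide, by 0.54. Of 5 tested genes of peripheral myelin, made by Schwann cells, 1 passed, against 4.2% of all genes called higher in that comparison. Dhh, a hedgehog ligand, rose by 0.77 in heterozygous against wild-type cells (adjusted p = 0.0129 with limma). The brightest of the list beside Mbp was Pmp22, between 9.84 and 10.50. Dhh lay between 4.30 and 5.22, near the 30th percentile of the arrays (4.82 to 4.95), and was above it only on the heterozygous arrays. It thus passed the filter only through the group in which it was called high.

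Microglia and macrophage markers, and some astrocyte markers, were higher on the heterozygous arrays, on which Mag and Cldn11 were highest. Of 20 markers of microglia and macrophages, 16 were tested and 4 (Aif1, Itgam, Mrc1 and Cd163) lay below the filter. In heterozygous against wild-type cells 13 of the 16 rose and 0 fell, against 4.2% of all genes called higher, and in null against heterozygous cells 0 rose and 10 fell, against 3.96% called lower. The mean log2 level of the 16 was 5.46 to 5.83 on the null arrays, 6.50 to 6.86 on the heterozygous arrays and 5.30 to 5.60 on the wild-type arrays, so the heterozygous arrays lay above all others. Over all 20 listed markers, with no filter, the mean level was 5.15 to 5.49, 6.02 to 6.38 and 5.01 to 5.28 in that order. Ptprc, the leukocyte antigen CD45, measured 4.33, 4.58 and 4.53 on the null arrays, 5.88 and 5.62 on the heterozygous arrays, and 4.32 and 4.38 on the wild-type arrays. Ptprc, Cd68 and Cd14, counted among the 13, passed the filter only through the heterozygous arrays, the group in which they were called high. Of 13 tested astrocyte markers, 3 rose and 1 fell in heterozygous against wild-type cells (backgrounds 4.2% and 5.95%), with rises of Gfap (1.49), Aldh1l1 (1.46) and Sox9 (1.34) and a fall of S100b (-0.76). Aldh1l1 passed the filter only through the heterozygous arrays (5.71 and 6.40), the group in which it was called high. Of the 13, 1 rose and 4 fell in null against heterozygous cells (backgrounds 5% and 3.96%). Their mean level was 7.80 to 8.33 on the null arrays, 8.48 to 8.74 on the heterozygous arrays and 8.03 to 8.08 on the wild-type arrays. Of 11 tested neuron markers 0 rose and 2 fell (Snap25 and Gad1) in heterozygous against wild-type cells (backgrounds 4.2% and 5.95%). Of 10 tested endothelium and pericyte markers 1 rose (Tagln) and 0 fell there. The reverse calls, 2 higher and 1 lower, were made in null against heterozygous cells (backgrounds 5% and 3.96%). The medians of both lists in heterozygous against wild-type cells were 0.03. The part of these cells in the levels of the myelin genes was not tested. The microglial mean was 6.50 on heterozygous replicate 1 and 6.86 on heterozygous replicate 2. Mbp, Mobp, Mog and Mal were lower on heterozygous replicate 2 than on heterozygous replicate 1, and Mag, Cldn11, Cnp and Ugt8a were higher. The signal at the 3' end over that at the 5' end of control transcripts, a measure of RNA integrity, was 0.62 to 0.91 (log2) on the null arrays, 0.75 to 0.90 on the heterozygous arrays and 0.61 to 0.83 on the wild-type arrays, so the groups overlapped.

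**Figure D5:**
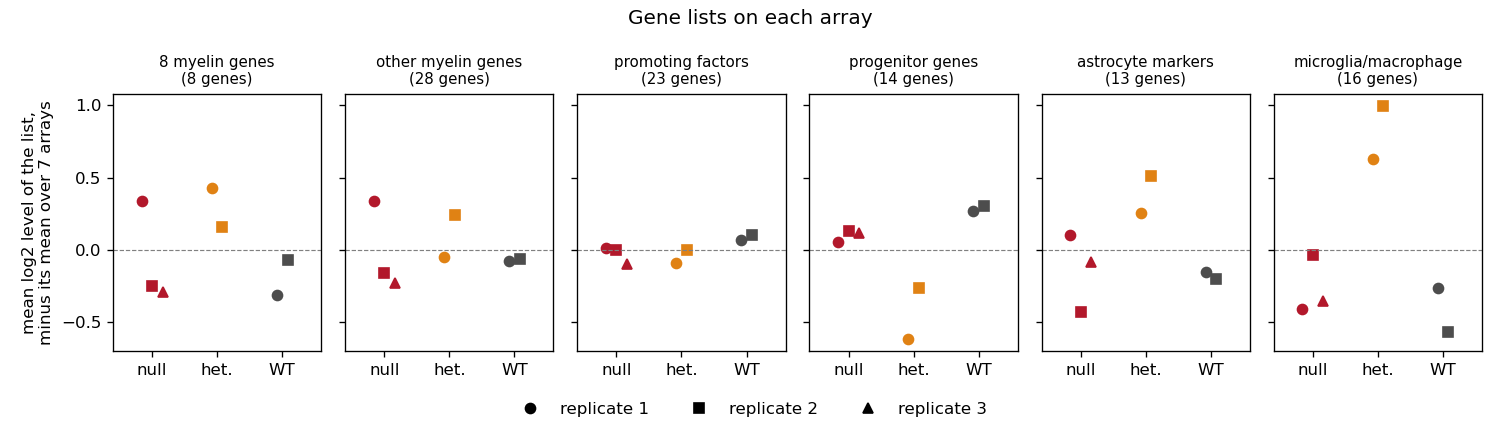
Mean log2 level of the tested genes of 6 lists on each array, minus the list's mean over the 7 arrays (vertical axis), by genotype (horizontal axis; het., heterozygous; WT, wild type); symbols mark the replicate. Null replicate 1 stands above the other null arrays in both myelin lists, whereas the heterozygous arrays stand below the others in progenitor genes and above them in microglia and macrophage markers.

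Genes with a pattern like that of the members were sought by the correlation over 7 arrays with the mean of the members, each taken relative to its own mean. The 8 most alike were Epb41l2 (r = 0.98), a gene for a protein of the membrane skeleton, Txnip (0.97), which encodes an inhibitor of thioredoxin, Krt8 (0.96), Bbox1 (0.96), Txndc17 (0.96), Helz2 (0.95), Kif21a (0.95) and Tmem140 (0.94). Epb41l2 measured 10.15, 9.74 and 9.69 on the null arrays, 10.16 and 9.995 on the heterozygous arrays, and 9.75 and 9.77 on the wild-type arrays. Like the mean of the members, it was high on null replicate 1 and both heterozygous arrays. The 4 most opposite were Ankrd13c (-0.99), Rnf19a (-0.98), Atp5a1 (-0.98) and Phc1 (-0.98). These genes were chosen for their correlation among 9243 genes with only 7 arrays, and no test was made.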

How the data were processed

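RNA of sorted mouse glioma cells was measured on 7 arrays. Per the labels' protocols, tumours were dissociated with papain before sorting, and 75 ng of total RNA was labelled from the 3' end. The authors deposited 1 log2 value per probe set and array, made by RMA with Partek 6.6 among the tools, per the submitters' processing notes. RMA sets arrays to a common distribution, so a shift of all genes cannot be seen. Of 22690 probe sets, 64 were controls, 20380 named 1 gene, 691 named several and 1555 were unnamed here. Of the single-gene probe sets, 20351 were matched to RefSeq (GRCm38.p6).

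Each gene was represented by its brightest probe set and tested if above the array's 30th percentile on at least 2 arrays (9243 of 12393 genes). limma 3.58.1 in R 4.3.3 fitted a mean per genotype to all 7 arrays with 4 residual degrees of freedom, with Benjamini-Hochberg adjustment, a threshold of 0.05 and two-sided tests. On simulated data with 9243 genes, log2 changes of 1 were recovered in 91.0% (null against wild type), 83.6% (heterozygous against wild type) and 94.0% (null against heterozygous) of cases, and changes of 0.5 in 19.4%, 11.9% and 13.4%. These shares are over genes of every spread, and most members spread more than the typical gene. The number of arrays limits the precision. Members and lists were chosen with earlier results of these data known, and lists were described by counts and medians without a set test. Named genes were all members, up to 4 called genes per list and comparison by smallest p, with the 2 brightest where fewer than 2 were called, Ptprd and Pdgfra, and the genes most alike in pattern; exceptions are marked. Same-numbered arrays of different genotypes deviated from their genotype means with correlations from -0.41 to 0.11. In a genotype with 2 arrays the deviations mirror each other, so these correlations cannot settle whether numbers pair arrays. Numbers were not taken to pair arrays, and a replicate block was run as an alternative. Alternatives changed the probe set, the filter, the scaling, the covariates, the arrays in the fit and the moderation, and left out each array in turn. No 2 arrays held identical values.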

Additional observations from a re-analysis of the deposited data

How the results depend on the processing

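The 0 calls among the members held under every alternative run, except that 2 (Mag and Cldn11) were called in heterozygous against wild-type cells without null replicate 3 (range 0 to 2 over the arrays left out, 0 to 0 in the other comparisons). Of 402 member values under an alternative, 32 changed sign, none of them called. Mbp and Cnp are read only by probe sets whose names end in _a_at, _s_at or _x_at, and had no value when those were left out.

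Counts of genes called in heterozygous against wild-type cells (938) were 372 with the 3' minus 5' covariate, 217 with the replicate block, 97 unmoderated, 172 with these genotypes alone, 0 without the arrays with Xist and Y-linked transcripts (1802 at an unadjusted limma p under 0.05), and 33 to 802 with an array left out. In null against heterozygous cells (828) they were 471, 25, 2, 355, 0 (1426 at an unadjusted limma p under 0.05) and 90 to 732. In null against wild-type cells (0, with 475 at an unadjusted limma p under 0.05) the count was 1 with probe sets averaged per gene, 1 unmoderated, and 0 to 1 with an array left out.

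The median of the members in heterozygous against wild-type cells was 0.14 without the arrays with Xist and Y-linked transcripts and 0.14 to 0.89 with an array left out. The other medians then ran from -0.59 to 0.0702 (null against heterozygous) and from -0.0904 to 0.21 (null against wild-type).

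Sign changes under single settings were as follows. With the replicate block, null against wild-type turned to 0.28 for Cldn11 and -0.0541 for Mobp, and null against heterozygous to 0.15 for Mal. With probe sets averaged, heterozygous against wild-type turned to 0.0769 for Cnp and 0.0176 for Mbp. With the covariate, null against heterozygous turned to 0.0227 for Mbp. Without the arrays with Xist and Y-linked transcripts, null against wild-type was -0.0616 for Mag, -0.0372 for Mal and -0.12 for Mog, heterozygous against wild-type was -0.35 for Mobp, and null against heterozygous was 0.13 for Mbp and 0.54 for Mobp. With an array left out, null against wild-type ran from -0.39 to 0.28 for Cldn11, -0.0616 to 0.40 for Mag, -0.0372 to 0.79 for Mal, -0.29 to 0.19 for Mbp, -0.0903 to 0.87 for Mobp and -0.12 to 0.59 for Mog. Heterozygous against wild-type ran from -0.34 to 0.19 for Mbp and -0.35 to 1.42 for Mobp, and null against heterozygous from -0.68 to 0.15 for Mal, -0.27 to 0.26 for Mbp and -1.09 to 0.68 for Mobp. Where an array was left out, fewer arrays entered the fit, and a lone array of a genotype was assumed to vary like the others. For the other settings the cause was not tested.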
